A study of Mus musculus with 96 samples.

Results

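Interferon-stimulated genes are the genes a cell switches on when an interferon binds its surface. A set of 37 of them was taken by gene symbol from the gene table of a diet study in mice, covering RNA sensors, transcription factors, the ISG15 system, the IFIT and OAS families, GTPases, other antiviral effectors and a few further members. Values were held for 35 of the 37, among 20155 genes with values of the 21990 genes listed, and Mx1 and Mx2 were not analysed here. No measured value entered the choice rule, which used names alone.

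Libraries came from male C57BL/6N mice bought at 4 weeks of age and fed either chow (CD, LabDiet 5001, 13.5% fat) or a high-fat diet (HFD, Research Diets D12492, 60% fat). Each diet was sampled at weeks 4, 8, 12, 16, 20 and 24 with 4 mice per diet and week, and hand-picked pancreatic islets and a piece of liver of the same 48 mice were sequenced, giving 96 libraries in 24 groups. No transgene, deletion or drug was used, so the groups of one tissue differ by diet and by time on it. The chow and the HFD differ in ingredients beyond fat, so an HFD effect below is the effect of one whole diet against the other.

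Type I interferons signal through the receptor chains IFNAR1 and IFNAR2 and the kinases JAK1 and TYK2, which activate STAT2. Together with IRF9 it takes part in the complex ISGF3, which binds interferon-stimulated response elements in promoters. The products detect viral RNA, block its translation, tag proteins with ISG15 and, through USP18, damp the receptor. Low tonic signalling keeps many of these genes expressed in uninfected tissue, and resident liver macrophages, endothelial cells, hepatocytes and beta cells can all respond.

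The core of the ISGF3 element was searched as GAAANNGAAA, or TTTCNNTTTC on the other strand, in promoter sequences from RefSeq (GRCm38.p6) that run from 250 bases before to 50 bases after each gene's start. A match was present for 16 of the 26 members with a promoter entry (61.5%), compared with 1079 of 27025 genes (3.99%). By promoter rather than by gene, 17 of 30 member promoters (56.7%) and 1131 of 32851 promoters (3.44%) held one. The 160 bases upstream of the start are printed below for 5 members that rose in HFD livers (Isg15, Ifit3, Oas1a, Gbp2 and Rsad2) and for 2 whose diet effect in liver did not pass the test (Bst2 and Igtp), 5′ to 3′ on the gene's strand, with every matched base in capitals. Neighbouring matches overlap in some promoters, so a run of capitals longer than 10 bases holds more than 1 match.

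Isg15 (chr4:156200819-156200978, minus strand): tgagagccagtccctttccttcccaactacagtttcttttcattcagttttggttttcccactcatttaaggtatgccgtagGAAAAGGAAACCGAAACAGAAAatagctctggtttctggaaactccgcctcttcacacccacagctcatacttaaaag
Ifit3 (chr19:34583369-34583528, plus strand): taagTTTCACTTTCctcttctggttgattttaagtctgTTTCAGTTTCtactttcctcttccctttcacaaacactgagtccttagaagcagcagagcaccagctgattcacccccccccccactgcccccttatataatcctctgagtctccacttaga
Oas1a (chr5:120907526-120907685, minus strand): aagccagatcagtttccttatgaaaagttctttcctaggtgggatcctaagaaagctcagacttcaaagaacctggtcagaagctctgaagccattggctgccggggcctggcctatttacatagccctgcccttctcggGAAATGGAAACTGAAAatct
Gbp2 (chr3:142620503-142620662, plus strand): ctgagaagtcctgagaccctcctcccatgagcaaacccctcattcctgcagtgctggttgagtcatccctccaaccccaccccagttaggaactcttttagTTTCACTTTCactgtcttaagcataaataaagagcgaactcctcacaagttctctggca
Rsad2 (chr12:26456453-26456612, minus strand): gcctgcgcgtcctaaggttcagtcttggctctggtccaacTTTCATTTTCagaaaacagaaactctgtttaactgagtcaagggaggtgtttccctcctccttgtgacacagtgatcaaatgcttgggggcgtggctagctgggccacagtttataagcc
Bst2 (chr8:71537473-71537632, minus strand): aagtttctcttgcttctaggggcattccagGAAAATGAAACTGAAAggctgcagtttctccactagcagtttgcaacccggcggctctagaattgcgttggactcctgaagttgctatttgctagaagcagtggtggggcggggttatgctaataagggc
Igtp (chr11:58199396-58199555, plus strand): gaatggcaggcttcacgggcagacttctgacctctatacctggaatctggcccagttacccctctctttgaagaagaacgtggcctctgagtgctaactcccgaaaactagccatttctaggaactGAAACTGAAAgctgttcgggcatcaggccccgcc

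Isg15 carries 3 overlapping matches close to its start, Ifit3 2 separate ones, Oas1a 2 overlapping ones next to the start and Bst2 2 overlapping ones. Gbp2, Rsad2 and Igtp carry 1 each. The 10 members with an entry and no match in this window were Cmpk2, Ifi35, Ifi44, Ifit2, Irf7, Irf9, Oasl1, Oasl2, Tap1 and Xaf1, which says only that these letters are absent from these bases. Several members are neighbours on the GRCm38 chromosomes: Rsad2 and Cmpk2 lie 12762 bases apart on chromosome 12 on opposite strands, Oas2 and Oas3 3152 bases apart on chromosome 5, Oasl1 and Oasl2 10623 bases apart on the same chromosome, and Ifit1, Ifit2 and Ifit3 together on chromosome 19. Near-identical copies (Oas1a, the Gbp, Ifit and Oasl genes, Trim30a) can share reads. How such reads were divided between copies is not given in the sources used here, so single values within these families are uncertain.

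Expression is given in FPKM, sequenced fragments divided by transcript length and by the size of the library, which allows levels to be compared between genes. Counts behind the FPKM were not used here, and the counting error of a low value is therefore unknown. FPKM summed to 892097 to 1278652 per islet library and 560016 to 672369 per liver library, with 11059 to 11941 and 9347 to 10570 genes at 1 FPKM or more. Tissue labels fitted their markers: 8 beta cell genes summed to between 576000 and 994000 FPKM in islets and at most 3770 in liver, and 8 hepatocyte genes to between 30300 and 73400 in liver and at most 1070 in islets. Most of that islet sum was Ttr (238 to 1050 FPKM), which is also on the alpha cell list. Because insulin transcripts take most of an islet library, each islet FPKM depends on how much insulin message the library holds, and results are given below with Ins1 and Ins2 left out of the sum where this changes them. Some libraries stood apart: 4 livers (CD304, CD306, CD407 and HFD616) held more acinar transcripts than the other livers and 5 islet libraries (CD106, HFD113, CD407, CD606 and CD608) more B cell transcripts than the other islets, by a limit chosen after seeing the data. The liver HFD517 of week 20 also stood apart, singled out after its values were seen: its 5 ductal genes summed to 222 FPKM, compared with 25.1 to 36.9 in the other livers of that week, its 4 neutrophil genes to 29.4, compared with at most 12.5, and its macrophage sum (503) was the highest and its hepatocyte sum (30300) the lowest of that week. Of the 5 genes listed for plasmacytoid dendritic cells, which make large amounts of type I interferon, Siglech lay between 0.03 and 0.5 FPKM over the 48 liver libraries and Ccr9 between 0.01 and 0.11. In islets Siglech reached at most 0.86 FPKM and Ccr9 0.1, while Klk1 (35 to 1020 FPKM) and Cox6a2 (11.6 to 132), also on that list, were higher. Tcf4, the last gene of the list, lay between 1.47 and 2.94 FPKM in liver and between 2.94 and 10.1 in islets.

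No interferon gene was expressed at a level that could be tested. Of 18 interferon genes listed for the purpose, 9 had values (Ifnb1, Ifna5, Ifna12, Ifna14, Ifnab, Ifnk, Ifnz, Ifng and Ifnl3). None exceeded 0.15 FPKM in any library of either tissue, and the median of each over the 48 libraries of a tissue was listed at 0. Ifnb1, which encodes interferon beta, was listed at 0 in 47 of 48 libraries of each tissue, and Ifng, which encodes interferon gamma, in 40 of 48 islet and 30 of 48 liver libraries.

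In CD mice the members were expressed in both tissues, at different levels. Testing islets against liver over 24 CD libraries each, 6 of the 35 members were higher in islets and 23 lower, where 66.5% of all genes tested were higher and 28.5% lower (95% in all). The median log2 difference, on the log2(FPKM + 1) scale used for every log2 value here, was -0.48 for the members and 0.64 for all genes. A difference on this scale understates the change of a gene at low FPKM.

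Cmpk2, a mitochondrial nucleotide kinase next to Rsad2, had the highest islet to liver difference. It lay between 8.94 and 16 FPKM in CD islets (median 13.3) and between 0.38 and 2.68 in CD liver (median 1.13), without overlap (log2 difference 2.65, SE 0.0668, limma adjusted p = 2.22e-52). Usp18, the protease that removes ISG15 from proteins and damps the interferon receptor, lay between 9.09 and 15.8 FPKM in islets and 1.95 and 5.57 in liver, again without overlap (log2 difference 1.39, limma adjusted p = 9.04e-33). Oasl2, a member of the 2'-5'-oligoadenylate synthetase-like proteins, ran from 2.51 to 6.07 FPKM in islets and from 0.78 to 2.34 in liver (log2 difference 0.74, limma adjusted p = 2.07e-15). Rsad2, encoding the antiviral enzyme viperin, was the fourth (log2 difference 0.66), with overlapping ranges.

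At the other end stood Bst2, Irf7, Isg15 and Zbp1. Bst2, or tetherin, which holds budding virions on the cell surface, lay between 5.11 and 9.32 FPKM in islets (median 6.15) and between 88.1 and 206 in liver (median 130; log2 difference -4.14, limma adjusted p = 2.68e-66). Irf7, the transcription factor that amplifies interferon production, had medians of 2.38 and 18.4 FPKM (log2 difference -2.55). Isg15 itself, the ubiquitin-like modifier, had a median of 0.995 FPKM in islets and 8.66 in liver (log2 difference -2.25). Zbp1, a sensor of Z-form nucleic acids, lay between 0.09 and 0.91 FPKM in CD islets and between 2 and 11 in CD liver (log2 difference -2.10). For these 4 genes no islet library reached the lowest liver library.

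Islets thus held the protease Usp18 at a high level and its substrate Isg15 at a low one, and liver the reverse. Gbp2, Ifi44, Ifit2, Oas1a, Trim30a and Ddx58 did not pass the test between the tissues. These counts depend on the scale: with a median-ratio scaling the all-gene median dropped from 0.64 to 0.08 and the members came out as 4 higher and 30 lower in islets (6615 of 12539 called genes higher, compared with 8876 of 12674). With Ins1 and Ins2 left out of the islet sum that median was 1.30, and 14 members were higher and 14 lower.

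**Figure D1:**
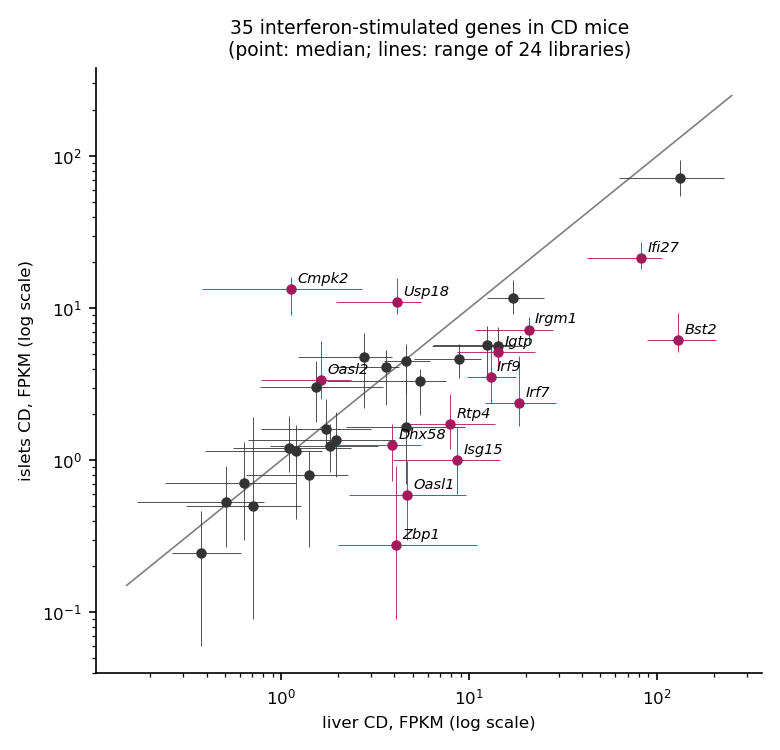
Level of the 35 interferon-stimulated genes in CD mice, with liver FPKM on the horizontal and islet FPKM on the vertical axis, both logarithmic. Points are medians of 24 libraries, bars run from the lowest to the highest library, labelled genes have ranges that do not overlap between tissues, and the diagonal marks equal levels; Cmpk2, Usp18 and Oasl2 lie above it and Bst2, Irf7, Isg15 and Zbp1 far below.

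In the liver, HFD raised most of the set. Averaging the HFD effect over the 6 weeks (48 libraries), 30 of the 35 members were higher in HFD than in CD livers and none was lower, where 35.8% of all genes tested were called higher and 6.78% lower (42.6% in all). All 35 estimates were above 0, with a median of 0.35 compared with 0.08 over 10879 genes. Of those 10879 genes, 7884 also had an estimate above 0. Under a median-ratio scaling, which brought the median of all genes to -0.02, 23 members were called higher and none lower, while the all-gene calls moved from 3892 higher of 4630 to 1943 higher of 4275. The 7 members no longer called under that scaling were Zbp1, Stat2, Irf9, Irgm1, Eif2ak2, Parp14 and Rtp4. All of these but Irgm1 also lost their call in at least 1 of the fits that left out a whole week, a choice made after seeing the data. Filtering kept all 35 members, but Ifit2 and Oas3 passed only through HFD livers (they never reached 1 FPKM in a CD liver). Without the 4 acinar-rich livers 28 members were called higher, Irf9 and Eif2ak2 no longer passing.

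**Figure D2:**
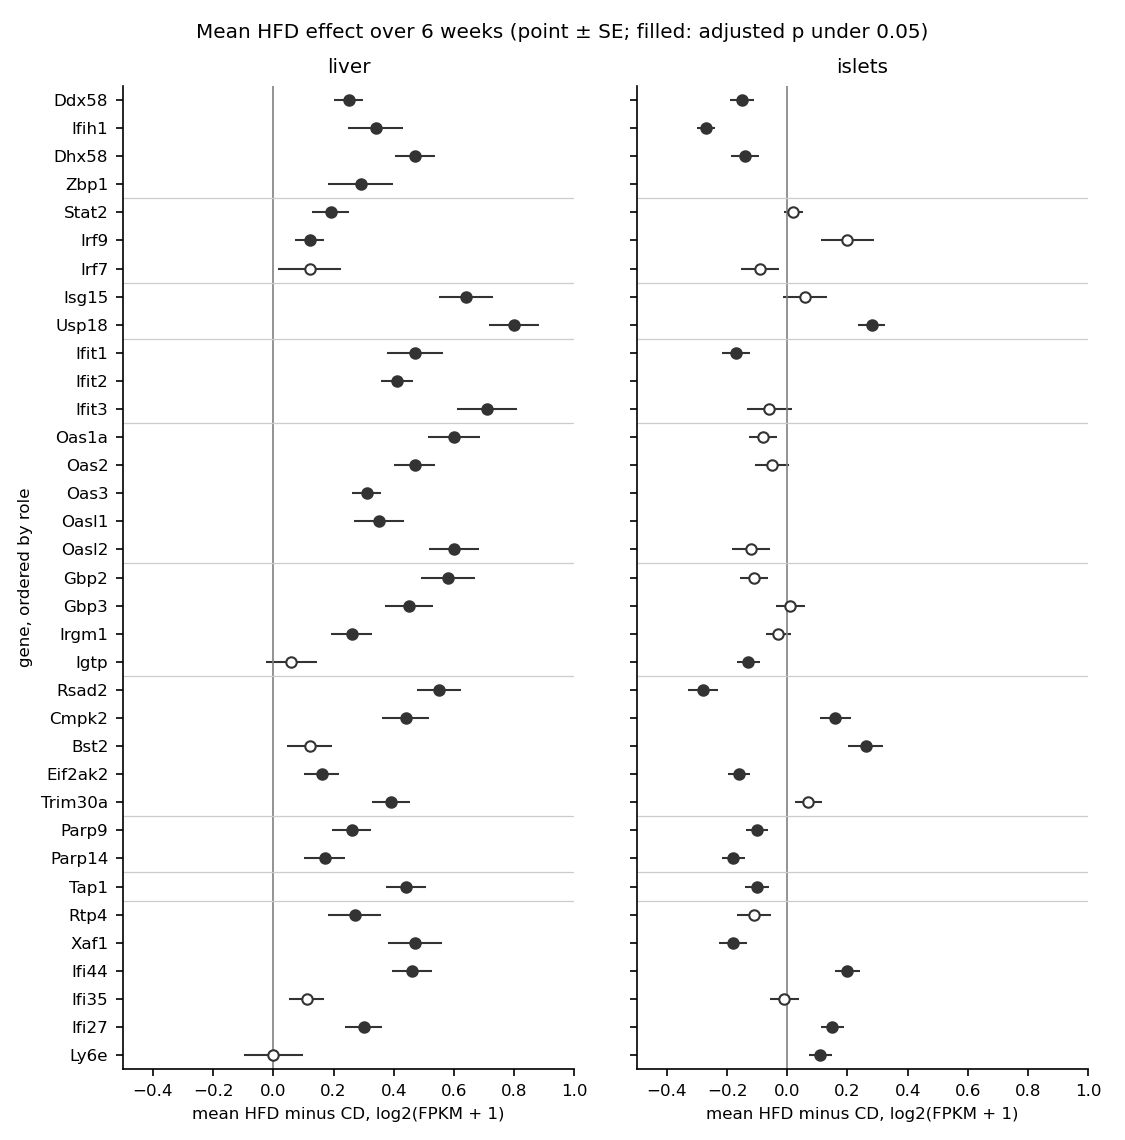
HFD effect averaged over the 6 weeks for each member in liver (left) and islets (right), as the log2(FPKM + 1) difference between HFD and CD with its standard error. Genes are ordered by role, filled points passed the test at an adjusted p of 0.05 and open points did not; in liver every point lies at or right of 0, in islets 6 filled points lie right and 11 left, and 4 genes (Zbp1, Ifit2, Oas3, Oasl1) were too low in islets to be tested.

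On the log2(FPKM + 1) scale Usp18 of the ISG15 system moved most in liver, and Isg15 rose too. That scale understates changes at low FPKM: the median of Gbp2 went from 1.1 FPKM in CD to 2.16 in HFD livers. Usp18 lay between 1.95 and 5.57 FPKM over the 24 CD livers (median 4.12) and between 4.4 and 12 over the 24 HFD livers (median 7.32), a log2 difference of 0.80 (SE 0.0828, limma adjusted p = 7.67e-10), or 1.74-fold on FPKM + 1. Isg15 ran from 3.93 to 14.6 FPKM in CD livers (median 8.66) and from 7.48 to 23.6 in HFD livers (median 13.8; log2 difference 0.64, SE 0.0904, limma adjusted p = 4.04e-07). Their HFD means were higher in all 6 weeks.

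Mouse by mouse, Usp18 read 5.05, 4.44, 4.18 and 4.14 FPKM in the 4 CD livers of week 4 and 7.18, 6.79, 5.81 and 7.43 in the 4 HFD livers. At week 12 it read 4.47, 2.35, 2.36 and 2.23 FPKM in CD and 6.58, 5.15, 4.97 and 5.79 in HFD livers. At week 16 the CD livers were at 4.81, 4.28, 4.2 and 3.81 FPKM and the HFD livers at 7.63, 8.93, 10.42 and 9.06. All HFD livers lay above all CD livers in each of these weeks. At week 20 the CD livers held 2.96, 3.11, 4.06 and 3.47 FPKM and the HFD livers 8.86, 7.69, 8.47 and 4.4, and at week 24 they held 1.95, 4.1, 4.77 and 5.04 compared with 9.03, 6.33, 12.02 and 8.54. The groups were again apart, with 1 HFD liver of week 20 just above the highest CD liver. Week 8 was the exception, with 4.78, 2.47, 3.42 and 5.57 FPKM in CD and 5.43, 7.2, 9.37 and 4.88 in HFD livers, so that 2 HFD livers fell within the CD range.

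For Isg15, the week 16 livers read 9.5, 7.76, 8.36 and 7.93 FPKM on CD and 13.08, 14.92, 23.6 and 15.0 on HFD. Week 20 gave 9.0, 10.25, 7.91 and 7.13 FPKM compared with 14.99, 17.04, 16.06 and 12.35. Both weeks separated the diets fully. Week 24 did not: the CD livers read 5.38, 10.65, 8.86 and 10.82 FPKM and the HFD livers 16.56, 7.48, 13.67 and 13.17, where the second HFD mouse (HFD614) fell below 3 of the CD mice.

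**Figure D3:**
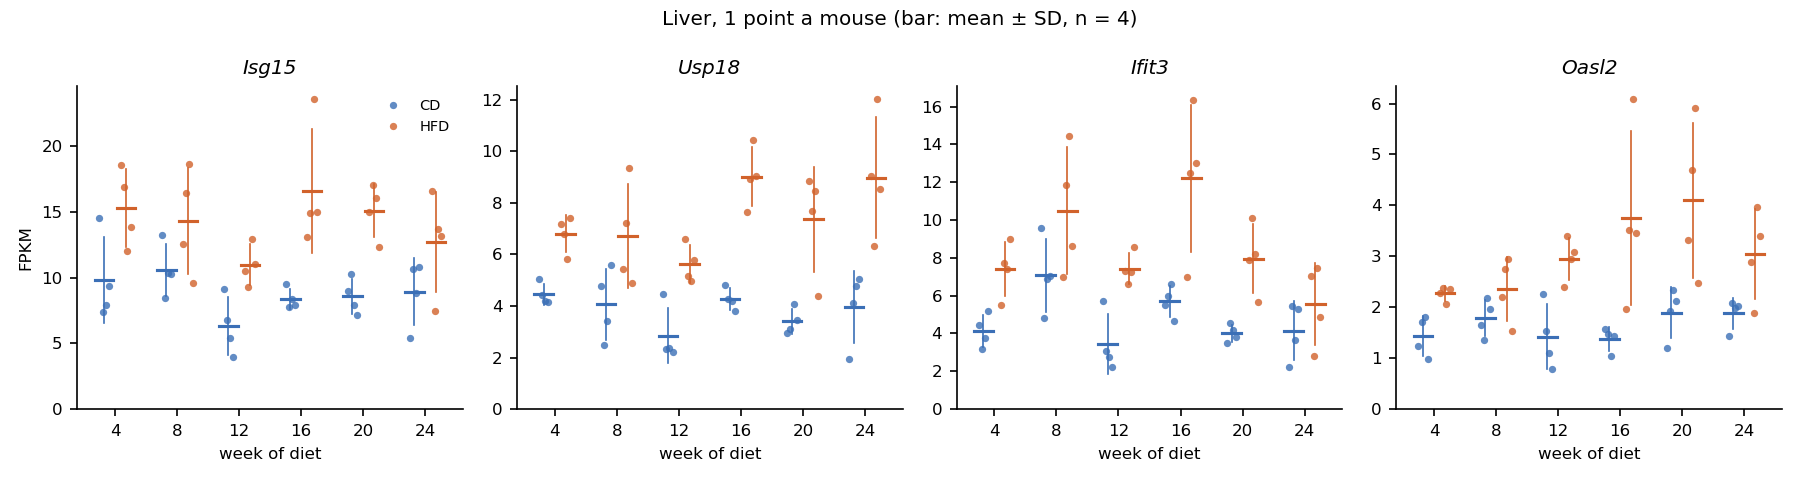
FPKM of Isg15, Usp18, Ifit3 and Oasl2 in every liver library by week on diet, CD beside HFD, with a bar for the mean and whiskers of 1 SD (n = 4 mice). Usp18 shows HFD points above all CD points in every week but week 8; the other 3 genes overlap at weeks 8 and 24, and Isg15 also at week 4.

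Among the IFIT proteins, which bind viral RNA and block its translation, Ifit1, Ifit2 and Ifit3 rose in HFD livers (median log2 difference 0.47), Ifit2 having passed the filter only through those livers. On the log2 scale Ifit3 changed most of the 3 (0.71, SE 0.0995, limma adjusted p = 3.53e-07). Ifit3 ran from 2.2 to 9.55 FPKM in CD livers (median 4.62) and from 2.83 to 16.4 in HFD livers (median 7.59). At week 16 its CD livers were at 5.51, 5.99, 6.6 and 4.68 FPKM and its HFD livers at 7.01, 12.47, 16.36 and 13.0, without overlap, the highest value belonging to HFD416. At week 24 the CD livers read 2.2, 5.46, 3.63 and 5.31 FPKM and the HFD livers 7.06, 2.83, 7.48 and 4.87, and the groups were intermixed.

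Enzymes of the OAS family make 2'-5'-oligoadenylates that activate the ribonuclease RNase L. The family had 5 of 5 members tested called higher in HFD livers (35.8% of all genes were), with a median log2 difference of 0.47. Oas3 passed the filter only through those livers. Oas1a ran from 0.78 to 2.99 FPKM in CD livers (median 1.72) and from 1.55 to 7.77 in HFD livers (median 3.36; log2 difference 0.60, limma adjusted p = 6.51e-07). Oasl2 ran from 0.78 to 2.34 FPKM (median 1.62) and from 1.53 to 6.08 (median 2.91; log2 difference 0.60, limma adjusted p = 1.87e-07). At week 16 the Oasl2 values were 1.58, 1.48, 1.04 and 1.44 FPKM on CD and 1.97, 3.52, 6.08 and 3.45 on HFD, without overlap. Oas2 (0.47), Oasl1 (0.35) and Oas3 (0.31) moved less on the log2 scale.

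All 4 nucleic acid sensors were called higher in HFD livers, where 35.8% of all genes were. Dhx58 (LGP2) rose by 0.47, Ifih1 (MDA5) by 0.34, Zbp1 by 0.29 and Ddx58 (RIG-I) by 0.25 on the log2 scale. Ifih1 ran from 1.74 FPKM in a CD liver to 10.0 in an HFD liver, and its groups separated in 1 week only, week 16, at 5.9, 5.99, 6.83 and 5.51 FPKM in CD and 7.78, 8.36, 10.0 and 8.72 in HFD livers. For Dhx58 the diets were apart in 4 of the 6 weeks. For Zbp1 they overlapped in every week. Its call was lost under median-ratio scaling and in at least 1 of the fits that left out a whole week.

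Of the 3 transcription factors in the set, 2 were called higher in liver (35.8% of all genes were), with a median log2 difference of 0.12 over the 3. Stat2 lay between 6.4 and 16.6 FPKM in CD livers (median 12.4) and between 9.62 and 17.5 in HFD livers (median 13.8; log2 difference 0.19, limma adjusted p = 0.0144), and its groups overlapped in every week. Without week 4 the call for Stat2 was lost (log2 difference 0.14, limma adjusted p = 0.0871). Irf9 passed narrowly (log2 difference 0.12, limma adjusted p = 0.0437), and that call was lost in 20 of the 48 fits that each left out 1 library. Irf7 lay between 12.1 and 29 FPKM in CD livers (median 18.4) and between 8.09 and 35.6 in HFD livers (median 21.4; log2 difference 0.12, SE 0.104, limma adjusted p = 0.379) and did not pass. At week 20 Irf7 read 15.72, 13.98, 23.25 and 27.12 FPKM on CD and 19.43, 35.62, 28.85 and 21.59 on HFD, a spread within each diet wider than the gap between them.

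GTPases that attack pathogen-containing vacuoles were split. Gbp2 rose most, from a CD range of 0.55 to 2.35 FPKM (median 1.1) to an HFD range of 0.9 to 7.09 (median 2.16; log2 difference 0.58, SE 0.09, limma adjusted p = 2.01e-06). At week 16 it read 1.35, 1.52, 1.08 and 1.3 FPKM in CD and 2.16, 3.5, 7.09 and 2.97 in HFD livers, without overlap. Gbp3 rose by 0.45 and Irgm1 by 0.26, and Igtp (Irgm3) did not pass (log2 difference 0.06, limma adjusted p = 0.576).

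Of the other antiviral effectors, Rsad2 (0.55), Cmpk2 (0.44), Trim30a (0.39) and the translation-blocking kinase Eif2ak2 (PKR, 0.16) rose in liver, and Bst2 did not pass (0.12, limma adjusted p = 0.187). Rsad2 read 1.13, 1.65, 1.19 and 0.8 FPKM in the CD livers of week 12 and 2.05, 3.41, 2.94 and 3.54 in the HFD livers, which all lay above. The ADP-ribosyltransferases Parp9 (0.26) and Parp14 (0.17) rose, the latter call being lost in 21 of 48 fits without 1 library, and so did Tap1 (0.44), which carries peptides to MHC class I molecules. Xaf1 (0.47), Ifi44 (0.46), Ifi27 (0.30) and Rtp4 (0.27) rose, while Ifi35 (0.11) and Ly6e (0.00) did not pass. The presence of the printed motif did not separate these genes: 14 of 16 members with it, 8 of 10 without and 8 of 9 with no promoter entry were called higher in liver, with median log2 differences of 0.36, 0.42 and 0.29. Of all genes, 35.8% were called higher. Oas3, with the motif, and Ifit2, without it, passed the filter only through HFD livers.

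Week by week in liver, the size of the effect varied and so did the number of calls. At week 4 no member of 31 tested was called (0.0506% of all genes were, 0.0405% higher and 0.0101% lower). An unadjusted p under 0.05 was found for 19, 30 of 31 estimates were above 0 and the median was 0.43. These values and the weekly medians below stand without those of all genes, so alone they do not set the members apart. Over the 6 weeks the median of all genes in liver was 0.08. For 13 of the 31 all HFD livers lay above all CD livers, where 5.85% of all genes did. Of the members tested that week, Gbp2 and Trim30a passed the filter only through HFD livers. At week 8 the median was 0.18, 1 of 33 was called (7.49% of all genes were, 6.17% higher) and 1 of 33 was without overlap (11.4%). The gene was Ifi27, a small hydrophobic protein, at 77.86, 70.84, 81.38 and 83.19 FPKM in CD and 94.52, 98.73, 105.75 and 98.6 in HFD livers (log2 difference 0.34, limma adjusted p = 0.0299).

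At week 12, 11 of 31 members were called, all higher (9.42% of all genes), with a median of 0.47. Ifit3 led (0.97, limma adjusted p = 0.0215), followed by Rsad2 (0.86), Usp18 (0.81) and Isg15 (0.75). Cmpk2 was among the 11 and passed the filter only through HFD livers. At week 16, 12 of 32 were called higher (6.74%), led by Gbp2 (1.00, limma adjusted p = 0.0448), Ifit3 (0.93), Oasl2 (0.93) and Usp18 (0.92, limma adjusted p = 0.000854). At week 20, 6 of 33 were called higher (1.73%): Usp18 (0.89), Ifit3 (0.82), Gbp2 (0.80), Isg15 (0.75), Ifi44 (0.73) and Xaf1 (0.71). Ifi44 passed the filter there only through HFD livers, at 1.73, 1.73, 1.85 and 1.3 FPKM compared with 0.57, 0.52, 0.67 and 0.6 in CD livers. HFD517 was the highest of the 4 HFD livers for 18 of 35 members, and without it only Ifi44 was called (0.70, limma adjusted p = 0.0229), while the count over the 6 weeks was 29 in place of 30.

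At week 24 no member of 32 was called (0.837% of all genes were, 0.65% higher), 3 had an unadjusted p under 0.05 and the median was 0.09. The estimate for Usp18 (1.03, limma adjusted p = 0.0927) was its highest of the 6 weeks. Groups were without overlap for 11 of 31 members at week 12 (14.6% of all genes), 18 of 32 at week 16 (11.9%), 18 of 33 at week 20 (6.58%) and 2 of 32 at week 24 (8.14%). A test of whether the effect differed between weeks called none of the 35 members in liver (1.46% of all genes). A difference between week 24 and the other weeks is therefore not shown. In that test 2 members had an unadjusted p under 0.05 (Ifit2 and Oasl1). This count and the 3 of week 24 stand without those of all genes. With a median-ratio scaling 8 members were called higher at each of weeks 12, 16 and 20, while the all-gene calls moved from 938 higher of 1059 to 563 of 1088 at week 12, from 682 of 751 to 412 of 588 at week 16 and from 619 of 752 to 460 of 652 at week 8.

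Single livers carried much of the weekly spread. HFD416 was the highest HFD liver of week 16 for 33 of 35 members, CD304 the highest CD liver of week 12 for 32, CD601 the lowest CD liver of week 24 for 32, and HFD614 the lowest HFD liver of that week for 28. The mean log2(FPKM + 1) of the 35 members was 2.81, 2.74, 2.69 and 2.59 in the CD livers of week 16 and 2.94, 3.14, 3.56 and 3.19 in the HFD livers. At week 24 it was 2.47, 2.93, 2.85 and 2.95 on CD and 3.21, 2.58, 3.22 and 2.91 on HFD, the extremes being CD601 and HFD614. Leaving out CD304 raised the week 12 count from 11 to 23, and leaving out HFD411 raised the week 16 count from 12 to 19. Leaving out CD307 lowered the former to 1, and leaving out HFD418 lowered the latter to 2.

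**Figure D4:**
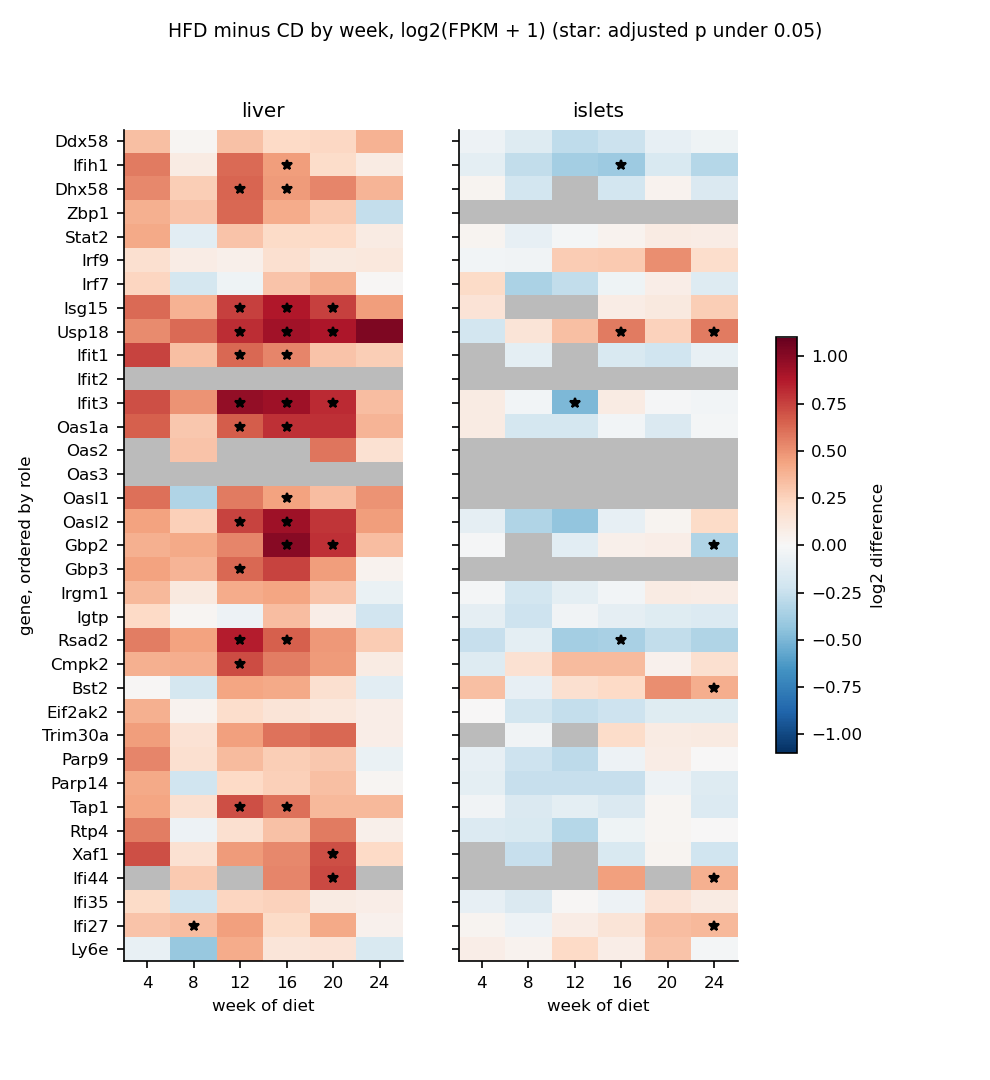
Heat map of the HFD effect (log2(FPKM + 1) difference, HFD minus CD) for each member by week, liver and islets side by side, on 1 colour scale, with a star where the adjusted p was under 0.05 and grey where the gene was too low to be tested. Liver is positive in most cells and palest at weeks 8 and 24, and the starred cells lie in weeks 8 to 20; islets are pale, with starred cells at weeks 12, 16 and 24.

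Most of the macrophage genes tested were higher in HFD livers. Of 11 listed, 10 were tested and 8 were called higher, where 35.8% of all genes were. Foremost were Cd68 (0.93), Lyz2 (0.68) and Adgre1 (0.66), while the Kupffer cell marker Clec4f (0.23, limma adjusted p = 0.0601) and Mrc1 (0.11) did not pass. The summed level of the 11 ran from 91.9 to 295 FPKM in CD livers (median 163) and from 110 to 503 in HFD livers (median 246). By week it ran from 99.5 to 187 on CD and 110 to 190 on HFD at week 8, from 209 to 235 and 322 to 503 at week 20, and from 180 to 295 and 170 to 365 at week 24. None of the 11 was at 0 in every library.

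The 5 stromal genes also rose in HFD livers (median log2 difference 1.17), with a summed level of 28.1 to 89.3 FPKM on CD and 49.4 to 165 on HFD. T and NK cell genes summed to at most 3.46 FPKM in any liver, and plasmacytoid dendritic cell genes to between 1.68 and 3.94 on CD and 1.86 and 3.46 on HFD. Most of the latter sum was Tcf4 (1.47 to 2.94 FPKM). The part of these cells in the member result was not tested, and in bulk tissue more cells of a type and more RNA per cell cannot be told apart.

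In islets the same set split by direction. Of the 35 members, 31 could be tested for the mean HFD effect: 6 were higher in HFD islets (16.6% of all genes were called higher) and 11 lower (22% were called lower, and 38.6% either way), with a median log2 difference of -0.09 compared with -0.01 for all genes. Zbp1, Ifit2 and Oas3 stayed under 1 FPKM in every islet library, and Oasl1 in all but 1, so these 4 were not tested. With Ins1 and Ins2 left out of the islet sum, 8 members were higher and 5 lower (4445 of 5695 called genes were higher, compared with 2060 of 4782), and with a median-ratio scaling 7 were higher and 10 lower (3552 of 5968). The 6 lower members that lost their call without the insulin genes were Ddx58, Dhx58, Igtp, Eif2ak2, Parp9 and Tap1, and Rsad2, Ifih1, Xaf1, Parp14 and Ifit1 were still lower. Without the 5 islet libraries rich in B cell transcripts 6 were higher and 9 lower.

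Usp18 was again the member with the largest rise on the log2 scale. It lay between 9.09 and 15.8 FPKM in CD islets (median 10.9) and between 9.48 and 23.2 in HFD islets (median 13.7), a log2 difference of 0.28 (SE 0.0449, limma adjusted p = 4.26e-06). The effect changed between weeks (limma adjusted p = 0.00704). At week 4 the CD islets read 13.05, 13.04, 12.97 and 12.91 FPKM and the HFD islets 11.98, 11.04, 9.48 and 12.55, all HFD values below. At week 16 they read 9.09, 9.7, 10.65 and 9.76 compared with 16.99, 12.57, 17.1 and 13.96 FPKM, and at week 24 9.75, 9.5, 9.7 and 9.36 compared with 13.52, 15.55, 15.01 and 14.84. All HFD values were above in both of these weeks. The weekly log2 differences were -0.20, 0.14, 0.33, 0.57, 0.25 and 0.57 in order of time, and those of weeks 16 (limma adjusted p = 0.00125) and 24 (limma adjusted p = 0.000215) passed the test.

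Isg15, the substrate of USP18, did not follow in islets. It ran from 0.6 to 1.64 FPKM in CD islets (median 0.995) and from 0.31 to 2.49 in HFD islets (median 0.99; log2 difference 0.06, limma adjusted p = 0.551). At week 24 it read 0.82, 0.9, 0.89 and 1.0 FPKM on CD and 1.64, 0.81, 1.13 and 1.68 on HFD, with 1 HFD mouse below all CD mice. Neither did the transcription factors: Stat2 had medians of 5.74 and 5.58 FPKM (log2 difference 0.02, limma adjusted p = 0.61), Irf7 of 2.38 and 2.12 (log2 difference -0.09, limma adjusted p = 0.267) and Irf9 of 3.53 and 4.36 (log2 difference 0.20, limma adjusted p = 0.0741).

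Ifi44, a cytoplasmic antiviral protein, was the other member whose islet effect changed between weeks (limma adjusted p = 0.021, 2 of 31 members compared with 4.25% of all genes). An unadjusted p under 0.05 was found for 5 of 31, a count that stands without that of all genes. At week 4 Ifi44 read 0.32, 0.37, 0.4 and 0.67 FPKM in CD and 0.38, 0.38, 0.38 and 0.43 in HFD islets. At week 24 it read 0.89, 1.09, 0.85 and 0.72 compared with 1.49, 1.48, 1.56 and 1.35 FPKM. The diets overlapped at the first time point and were apart at the last. Neither this change nor that of Usp18 passed when the 5 islet libraries rich in B cell transcripts were left out, a choice made after seeing the data.

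Bst2 rose in islets, where its level was low: from 5.11 to 9.32 FPKM on CD (median 6.15) and 4.94 to 13.9 on HFD (median 7.46; log2 difference 0.26, SE 0.0571, limma adjusted p = 0.000429). At week 24 the CD islets were at 5.18, 6.59, 6.92 and 5.69 FPKM and the HFD islets at 8.01, 7.18, 10.21 and 8.01, without overlap. Cmpk2 (0.16), Ifi27 (0.15) and Ly6e (0.11) were also called higher. Without week 12, Cmpk2 (0.12, limma adjusted p = 0.0774) and Ly6e (0.09, limma adjusted p = 0.0926) did not pass.

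All 3 cytosolic RNA sensors tested were called lower in HFD islets, where 22% of all genes were. Ifih1 had the lowest adjusted p of the set: 1.99 to 3.98 FPKM in CD islets (median 3.3) and 1.34 to 3.03 in HFD islets (median 2.64), a log2 difference of -0.27 (SE 0.0285, limma adjusted p = 3.11e-10), lower in the mean of all 6 weeks and without overlap in 5. At week 16 it read 3.83, 3.45, 3.97 and 3.98 FPKM on CD and 2.58, 2.5, 2.8 and 2.69 on HFD. At week 24 it read 3.87, 3.56, 3.23 and 3.22 compared with 2.76, 2.41, 2.92 and 2.31 FPKM. Ddx58 (-0.15) and Dhx58 (-0.14) fell less.

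Rsad2 fell by 0.28 on the log2 scale in islets (SE 0.051, limma adjusted p = 3e-05), from 1.77 to 4.46 FPKM on CD (median 3.02) to 1.42 to 5.2 on HFD (median 2.23). Its week 12 islets read 2.33, 2.6, 2.39 and 1.77 FPKM on CD and 1.42, 1.54, 1.57 and 1.57 on HFD, without overlap. At week 20 they read 2.58, 3.01, 2.93 and 3.6 FPKM compared with 3.77, 2.02, 1.87 and 1.94, where the HFD islets of HFD511 exceeded all CD islets and the other three lay below. Its neighbour Cmpk2, on the opposite strand, moved the other way in islets and the same way in liver.

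The remaining called members were lower in islets: Xaf1 (-0.18), Parp14 (-0.18), Ifit1 (-0.17), Eif2ak2 (-0.16), Igtp (-0.13), Tap1 (-0.10) and Parp9 (-0.10). Parp14 at week 16 read 4.9, 4.87, 5.13 and 4.78 FPKM on CD and 3.65, 4.42, 4.04 and 3.79 on HFD, without overlap. The call for Tap1 was lost in 23 of 48 fits without 1 library and that for Parp9 in 8. Without week 12, Tap1, Parp9, Ifit1 (-0.11, limma adjusted p = 0.106) and Dhx58 (-0.10, limma adjusted p = 0.135) did not pass. None of the 3 OAS genes tested passed in islets, where 38.6% of all genes did.

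**Figure D5:**
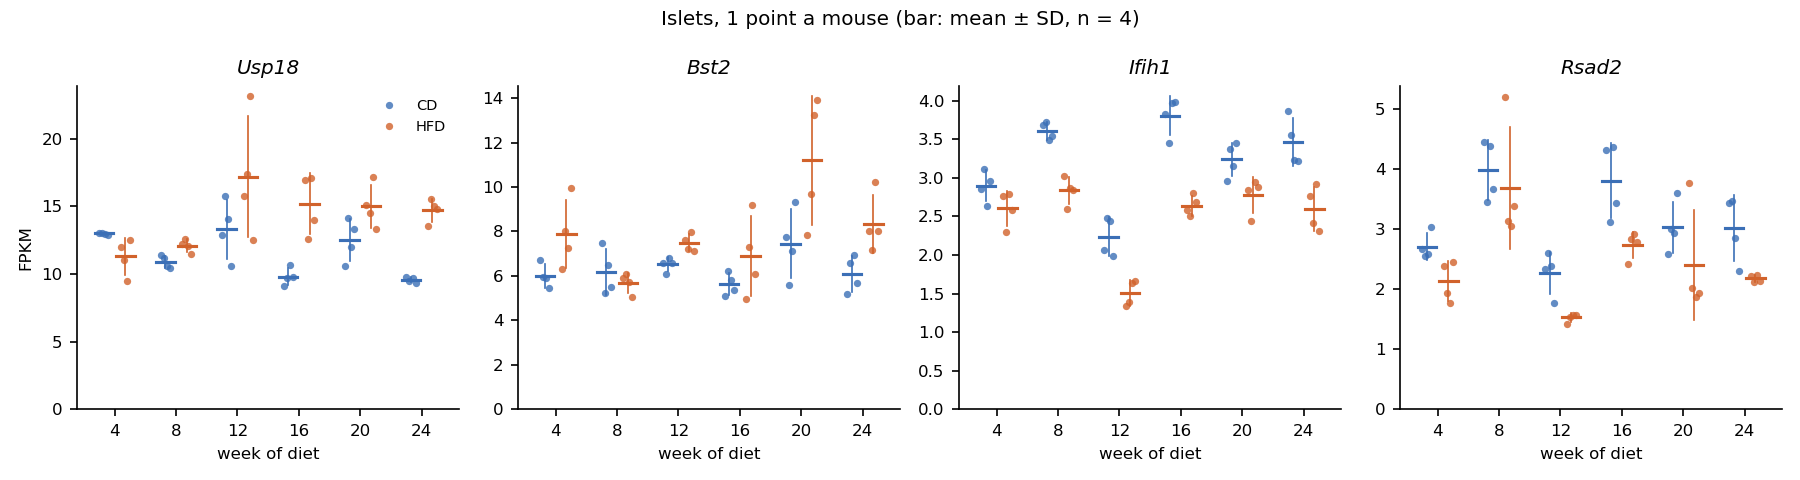
FPKM of Usp18, Bst2, Ifih1 and Rsad2 in every islet library by week on diet, CD beside HFD, with a bar for the mean and whiskers of 1 SD (n = 4 mice). Usp18 in HFD islets lies below CD at week 4 and above it at weeks 16 and 24, and Ifih1 in HFD islets lies below CD in every week from week 8.

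By week, few islet members were called. None of 25 was called at week 4 (0% of all genes) and none of 26 at week 8 (5.27%, 4.67% lower), with 3 and 10 at an unadjusted p under 0.05. At week 12 it was 1 of 23 (4.53%), Ifit3, at 1.72, 1.45, 1.64 and 2.56 FPKM on CD and 0.92, 1.11, 0.77 and 1.24 on HFD (log2 difference -0.49, limma adjusted p = 0.017). At week 16 it was 3 of 29 (8.45%): Usp18, Ifih1 (-0.40, limma adjusted p = 0.0048) and Rsad2 (-0.36, limma adjusted p = 0.0388). At week 20 none of 28 was called (4.74%), with 5 at an unadjusted p under 0.05. The counts at an unadjusted p for weeks 4, 8 and 20 stand without those of all genes, so alone they do not set the members apart.

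At week 24, 5 of 29 were called (8.3%). Usp18, Bst2 (0.40), Ifi44 (0.39) and Ifi27 (0.36) were higher and Gbp2 (-0.33, limma adjusted p = 0.0389) was lower. In 8 fits without 1 library, the call was lost in 7 for Gbp2, 5 for Bst2, 4 for Ifi44 and 1 for Ifi27. Under median-ratio scaling Bst2 (limma adjusted p = 0.0934) and Ifi27 (limma adjusted p = 0.123) did not pass. Gbp2 read 1.2, 1.17, 1.34 and 1.26 FPKM on CD and 0.88, 0.7, 0.82 and 0.72 on HFD, and passed the filter only through CD islets. Ifi27 read 18.76, 22.81, 20.03 and 23.91 FPKM compared with 29.48, 27.3, 27.45 and 26.54, without overlap. All HFD islets lay below all CD islets for 8 of 26 members at week 8 (15.8% of all genes) and above for 4 of 29 at week 24 (13.7%). The second share is close to that of all genes, and the first is above it. The split of all islet calls moved with the scaling: under a median-ratio scaling the genes called higher went from 70 of 613 to most of 174 at week 8, from 246 (with 265 lower) to 504 of 849 at week 12, from 386 of 988 to 734 of 1376 at week 16, from 179 of 555 to 424 of 687 at week 20 and from 769 of 972 to 522 of 856 at week 24. Without Ins1 and Ins2 they were 2873 of 3060 at week 12, 4798 of 5222 at week 16 and 146 of 1189 at week 20.

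Cell type markers also differed between HFD and CD islets. All 4 alpha cell and all 3 delta cell genes were lower, 4 of 8 acinar genes were lower, 5 beta cell genes were higher and 2 lower, and 2 of 7 macrophage genes tested were higher (C1qa, 0.25, and Adgre1, 0.22). Of all genes, 16.6% were called higher and 22% lower. With Ins1 and Ins2 left out of the sum, the all-gene calls moved from 2060 higher and 2722 lower to 4445 higher and 1250 lower. The marker calls are given on the main scale only. Macrophage genes summed to between 55 and 115 FPKM on CD and 46.7 and 165 on HFD, alpha cell genes to between 7220 and 16000 and between 1220 and 15200, and delta cell genes to between 2180 and 4840 and between 330 and 4000. None of the alpha, delta or macrophage markers was at 0 in every library. Their part in the islet result was not tested.

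The diet effect differed between the tissues of these mice. Testing the islet effect minus the liver effect, 27 of 35 members were lower in islets (35.5% of all genes were) and none was higher (8.42% were), with a median of -0.38 compared with -0.09 for all genes. Ifit2 and Oas3, among the 27, reached 1 FPKM only in HFD livers (7 and 5 of 24 libraries) and in no islet library. The largest differences were for Rsad2 (-0.83, limma adjusted p = 4.25e-12), Ifit3 (-0.77, limma adjusted p = 7.78e-07) and Oasl2 (-0.72). Those of Isg15 (-0.58, limma adjusted p = 4.91e-05) and Usp18 (-0.52, limma adjusted p = 6.96e-06) passed too, although Usp18 rose in both tissues. Stat2 (-0.16, limma adjusted p = 0.0505) did not pass, but did with the mouse as a block (limma adjusted p = 0.0444), the only member whose call that changed. A median-ratio scaling gave 24 lower and 2 higher, the latter being Bst2 (0.27) and Ly6e (0.27), while the all-gene calls moved from 1124 higher of 5861 to 3242 higher of 5754.

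By their own tests, 10 members were higher in HFD livers and lower in HFD islets: Rsad2, Ifih1, Xaf1, Parp14, Ifit1, Eif2ak2, Ddx58, Dhx58, Tap1 and Parp9. Of all genes, 35.8% were called higher in liver and 22% lower in islets. The share of all genes with both calls was not counted, so the 10 alone do not set the members apart. With Ins1 and Ins2 left out, Eif2ak2, Ddx58, Dhx58, Tap1 and Parp9 lost the islet call, and under median-ratio scaling Parp14 and Eif2ak2 lost the liver call and Tap1 the islet call. The difference between the tissues passed for all 10. Higher in both were 4 members, Usp18, Ifi44, Cmpk2 and Ifi27, where 16.6% of all genes were called higher in islets and 35.8% in liver.

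Levels in the 2 tissues of one mouse were compared by fitting each member in one tissue on the mean member level of the other, within diet and week. No member passed, in either direction of the fit (0% of all genes), with 5 of 35 liver genes and 6 of 31 islet genes at an unadjusted p under 0.05, compared with 610 of 10879 and 1270 of 12378 for all genes. Slopes had a median of 0.38 for liver genes on the islet level and 0.09 for islet genes on the liver level, where the medians over all genes were -0.11 and -0.09.

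Levels also changed with time within each diet. Over the 6 weeks, 19 of 31 members changed in CD islets (77.5% of all genes) and 27 of 31 in HFD islets (83.8%), and 20 of 35 in CD livers (55%) and 17 of 35 in HFD livers (50.2%). In 3 of these 4 counts the members' share lies close to that of all genes, and in CD islets below it. Zbp1 in CD livers, for example, read 6.25, 2.41, 2.39 and 2.22 FPKM at week 4 and 7.57, 10.95, 9.2 and 9.48 at week 24 (a gene chosen after its values were seen), and these groups did not overlap.

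Other genes of the pathway, taken from lists of receptors, kinases and transcription factors, sensors and adaptors, negative regulators and further interferon-stimulated genes, were counted in the same fits. Of 82 tested, 51 were higher and 4 lower in HFD livers (median log2 difference 0.21), where 35.8% of all genes were called higher and 6.78% lower. Most of the calls lay among the further stimulated genes (37 higher and 1 lower of 52), and the other lists together had 14 higher and 3 lower of 30. Median-ratio scaling, which brought the all-gene calls to 1943 higher and 2332 lower, gave 37 higher and 7 lower of the 82 (other scalings were applied to these lists after seeing the data). Cxcl10, a chemokine that attracts T cells, rose by 1.00 (1.13 to 17.2 FPKM on HFD, 0.64 to 4.54 on CD), Ifi27l2a by 0.99, Gbp6 by 0.78 and Lgals3bp by 0.72. Among the receptors, singled out after their values were seen, Il10rb (0.37), Ifngr2 (0.36) and Ifngr1 (0.32) rose and Ifnar2 fell by 0.15 on the log2 scale, while Ifnar1 did not pass (0.07).

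In islets 5 of the 77 pathway genes tested were higher and 24 lower (median log2 difference -0.05), where 16.6% of all genes were called higher and 22% lower. Of the 24, 18 were among the further stimulated genes. Median-ratio scaling gave 9 higher and 23 lower, and with Ins1 and Ins2 left out of the sum the balance turned, at 16 higher and 11 lower. Uba7, the enzyme that activates ISG15 for conjugation, fell by 0.37 on the log2 scale (limma adjusted p = 2.21e-07). The immunoproteasome subunits Psmb9 (-0.32) and Psmb8 (-0.25) and the helicase Ddx60 (-0.29) fell as well, and all 4 were also called lower under both of these scalings. In HFD livers Uba7 (0.27) and Psmb9 (0.53) rose and Psmb8 did not pass (0.09).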

How the data were processed

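Poly(A) RNA of 48 islet and 48 liver samples was reverse transcribed with random hexamers and sequenced on BGISEQ-500. The authors deposited FPKM per gene and library, and per the submitters' processing notes the tools were HISAT2 2.0.4, Bowtie2 2.2.5, RSEM 1.1.12 and DESeq2, with build GRCm38.p5; which tool made which column is not given in the sources used here. The table's group means, module labels and comparison columns (fold changes, p and q values) hold the authors' own results and were not used. Read depth is unknown, so no counting interval can be given.

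FPKM were taken as log2(FPKM + 1) and tested with limma 3.58.1 (R 4.3.3; trend and robust options), keeping genes at 1 FPKM or more in at least 4 libraries of a fit, with Benjamini-Hochberg adjustment over all genes kept and a threshold of 0.05. Each week was fitted on its 8 libraries. The mean HFD effect over 6 weeks, its change between weeks and the change over weeks within a diet were contrasts of a fit over the 12 groups of a tissue, and comparisons between tissues came from a fit over all 96 libraries. Samples were grouped by diet, tissue and week from their labels. Islets and liver of one number come from the same mouse: over 48 mice the deviations of a member from its group means correlated between tissues at a median r of 0.135 (range -0.276 to 0.577), and the consensus correlation over all genes was 0.0526. Groups within a tissue hold different mice. Scripts were tested on simulated data. Promoters, tables and figures were made with Python 3.11.15, pandas 2.3.3 and numpy 2.4.6.

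Genes and lists were chosen with earlier results of these data known. Named with statistics are, per tissue, up to 6 members of the largest mean effect, up to 4 per week, those whose effect changed between weeks, the 4 highest and 4 lowest between tissues, and Isg15, Irf7 and Stat2. Alternatives were another pseudocount, no filter, median-ratio scaling, Ins1 and Ins2 left out of the islet sum, no trend or robust option, a minimum log2 difference of 1, 1 fit for the 12 groups, the mouse as a block and each library left out. Mx1 and Mx2 are not reported here.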

Additional observations from a re-analysis of the deposited data

Results flagged for a closer look

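In 210 groups of 4 mice whose values are printed or plotted, the highest or lowest mouse was checked for a gap to the next that takes up nearly the whole range of the group. A gap of that size was found in 10, and chance gives about 1 group in 20. In liver, Irf7 was at 8.09 FPKM in HFD614 at week 24, with the other three at 24.88, 25.44 and 27.4, and Zbp1 was at 3.88 FPKM in the same liver, with the other three at 8.97, 9.04 and 9.78. Stat2 was at 9.1 FPKM in CD407 at week 16, with the other three at 12.37, 11.86 and 12.38. Usp18 was at 4.47 FPKM in CD304 at week 12, with the other three at 2.35, 2.36 and 2.23. Zbp1 was at 6.25 FPKM in CD101 at week 4, the others lying between 2.22 and 2.41. Ifit1 was at 1.82 FPKM in HFD112 at week 4, the others between 3.26 and 3.32, and Oasl2 at 1.43 FPKM in CD601 at week 24, the others between 1.99 and 2.08. In islets, Rsad2 was at 5.2 FPKM in HFD211 at week 8, the others between 3.05 and 3.39, and at 3.77 FPKM in HFD511 at week 20, the others between 1.87 and 2.02. Ifi44 was at 0.43 FPKM in HFD118 at week 4, with the other three at 0.38.

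The HFD effect differed between islets and liver for 27 members, lower in islets for each by limma's test of the difference (35.5% of all genes). For 10 of them the effect was called higher in liver (35.8% of all genes) and lower in islets (22%). The share of all genes with both calls was not counted. The islet calls of Eif2ak2, Ddx58, Dhx58, Tap1 and Parp9 were lost with Ins1 and Ins2 left out of the sum. Under median-ratio scaling Parp14 and Eif2ak2 lost the liver call and Tap1 the islet call. The islet effect minus the liver effect was -0.83 for Rsad2, -0.61 for Ifih1, -0.65 for Xaf1, -0.35 for Parp14 and -0.64 for Ifit1 on the log2 scale. It was -0.32 for Eif2ak2, -0.39 for Ddx58, -0.60 for Dhx58, -0.54 for Tap1 and -0.36 for Parp9. In islets the effect differed between weeks for Usp18 (limma adjusted p = 0.00704) and Ifi44 (limma adjusted p = 0.021).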

How the results depend on the processing

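The 30 liver members called higher over the 6 weeks numbered 28 to 31 when any 1 library was left out and 28 without a filter on low FPKM, and the difference between tissues was lower in islets for 27 to 29. Weekly counts depended more on single libraries. In liver they ran from 0 to 1 at week 4 (1 without CD101), 0 to 3 at week 8, 1 to 23 at week 12, 2 to 19 at week 16 and 1 to 15 at week 20 (1 without CD501, 15 without HFD518). In islets they ran from 0 to 1 at week 8, 0 to 5 at week 12, 0 to 7 at week 20 (7 without HFD511) and 2 to 5 at week 24. Without the filter the counts were 6 at liver week 12, 1 at liver week 20 and 1 at islet week 20. Median-ratio scaling gave 5, 8 and 1 islet members at weeks 12, 16 and 20, 0 liver members at week 8 and 2 members with a higher effect in islets. Without Ins1 and Ins2 there were 5 and 9 islet members at weeks 12 and 16, where the median of all genes became 0.285 and 0.204, 5 lower in the mean islet effect, 6 with an islet effect that changed between weeks, and 14 higher and 14 lower in islets than in liver. Without the trend and robust options 1, 2 and 5 islet members were called at weeks 8, 12 and 16. A minimum log2 difference of 1 left 0 in every diet comparison with calls, except 1 at liver week 16, and 2 higher and 14 lower between tissues. In 1 fit of 12 groups the counts were 1, 5 and 4 at islet weeks 8, 12 and 20 and 0, 13 and 2 at liver weeks 8, 20 and 24. With the mouse as a block, 28 members had a lower effect in islets in place of 27 (Stat2 added), and the block changed no other call. Chosen after seeing the data, leaving out 4 livers rich in acinar transcripts (CD304, CD306, CD407 and HFD616) gave 22 and 3 liver members at weeks 12 and 16. Leaving out 5 islet libraries rich in B cell transcripts (CD106, HFD113, CD407, CD606 and CD608) gave 0 members with a changing islet effect and 2 at week 24, and leaving out week 12 gave 7 lower in the mean islet effect. Islet to liver differences turned sign under median-ratio scaling for Ifit2 (-0.16), Gbp2 (-0.35), Parp14 (-0.42) and Ifi44 (-0.28), and without the insulin genes for Ddx58 (0.62), Ifih1 (0.17), Ifit1 (0.11), Oas1a (0.53), Oas2 (0.14), Oas3 (0.04), Trim30a (0.43), Xaf1 (0.13) and Ifi35 (0.19). Except for the minimum difference, the cause was not tested. Of 9034 values for single genes, 8474 kept their side of the threshold and, where called, their direction. Read depth is unknown, so low FPKM carry an error that cannot be given, and labels do not say whether mice shared cages.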
